A study of Arabidopsis thaliana with 12 samples.

Results

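The heat response of seedlings of Arabidopsis thaliana that carry the mutation atdamt1 was measured by comparing 3 libraries of heat-treated seedlings with 3 control libraries across the 32833 genes of the deposited RPKM table. These 6 libraries are atdamt1 plants in the Col-0 background, 10 days old, in control (labelled 0 h) or after 2.5 h of heat, out of 12 libraries in all. The other 6 are wild-type Col-0 seedlings of the same age and treatments, 3 in control and 3 after heat, and serve here only to show where the atdamt1 response differs. Each library is poly(A) RNA of seedlings, and the values are RPKM, the read count of a gene scaled by its length and by library depth. The labels give neither the kind of mutation in atdamt1 nor how many independent mutant lines were used. Because the controls are labelled 0 h, an effect of heat and one of the elapsed 2.5 h cannot be told apart. Whether replicate libraries were grown separately is not given either, and the p-values therefore describe library-to-library spread that may be technical.

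In the cell, heat unfolds proteins. In plants, heat shock factors of class A1 are held inactive by chaperones, are released when unfolded proteins occupy those chaperones, and bind heat shock elements, inverted repeats of the letters GAA, in front of chaperone genes. The small heat shock proteins hold unfolding proteins in a soluble state, and the HSP70 and HSP101 machines refold them. METTL4, named in the title of the series, is an adenine methyltransferase of animals, and atdamt1 is a mutant of the Arabidopsis gene of that family, AT1G19340.

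AT1G19340 (chr1:6684467-6687116 in TAIR10.1, 8 exon blocks) was low in atdamt1 but not at 0, and each heat library lay below each control library. It stood at 0.808, 0.913 and 1.29 RPKM in the atdamt1 control libraries and at 0.475, 0.146 and 0.404 RPKM after heat. Wild type had 2.50, 3.01 and 3.102 RPKM in control and 1.296, 1.33 and 1.54 RPKM after heat, so no atdamt1 library overlapped the wild-type libraries of the same treatment. On the deposited scale its heat change in atdamt1 was -0.58 (log2 of RPKM + 1, SE 0.14, adjusted p 0.00312). It missed the threshold under quantile scaling and is therefore not counted as changed.

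Depth ran from 21720000 to 23519000 reads per library over all 12 libraries, and replicates of a group correlated at 0.975 to 0.990 (Pearson, log2 values of the genes tested). Of the seedling and organ markers looked at, the leaf gene RBCS-1A, a Rubisco small subunit, was at 11210.0 to 18937 RPKM in the 6 atdamt1 libraries. PYK10, a beta-glucosidase of root ER bodies, was at 1319, 1342 and 2022 RPKM in control and 372, 319 and 346 RPKM after heat. The root-hair genes COBL9 and EXPA7 had at most 0.0188 RPKM, and the seed genes CRU3 and OLEO1 and the floral genes AP1 and AG at most 0.101 RPKM. Over the whole list of 26 flower, pollen and seed markers, 23 were too low to test, and the summed level was 8.91, 12.7 and 9.94 RPKM in control and 3.68, 13.1 and 4.31 RPKM after heat. In bulk samples, fewer cells of a type and less RNA per cell cannot be told apart.

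The test covered 17628 genes that reached 1 RPKM in 3 or more libraries, of which 1803 (10.2%) were called higher and 4371 (24.8%) lower after heat in atdamt1. A gene is called where limma's adjusted p passed 0.05 with the same sign on the deposited scale and under median-of-ratios and quantile scaling. The counts called in each gene list below are to be read beside these shares of 10.2% and 24.8%. Among the calls, 775 rises and 2938 falls were at least 1 on the log2 scale, and 102 rises and 24 falls at least 3. The median gene moved by -0.44 on the deposited scale, 0.01 under median-of-ratios scaling and -0.06 under quantile scaling. A gene near 0 on the deposited scale therefore lay above the median gene, and the smallest rise called was 0.22 while the smallest fall called was -0.55. On the deposited scale alone the calls were 1817 higher and 9913 lower, and under median-of-ratios scaling alone 4841 higher and 4811 lower, and under quantile scaling alone 4050 higher and 5177 lower. The heat and control libraries did not overlap for 2001 genes with heat higher (11.4%) and 10332 with heat lower (58.6%). Where a named gene below is said to show no overlap, these are the shares of all genes tested to set beside it. For a gene that fell, no overlap was thus the common state. A further fit took as a covariate the share of the summed RPKM that came from chloroplast-encoded genes, which was higher in every atdamt1 heat library than in every control. Its counts are given below as "with the covariate" where they differ from the main count by over 1.5 times. Over all genes tested that fit called 969 higher and 1696 lower. Because the covariate goes with the contrast tested, calls can be lost for any gene. A call lost this way is therefore no evidence about a gene or a list. Throughout, "rose" and "fell" are used of called genes only, and log2 changes are of RPKM + 1 on the deposited scale, which makes the change of low genes look smaller than it is.

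The 15 largest rises were all small heat shock proteins, HSP100, HSP90 or HSP70 chaperones, a co-chaperone, or the heat shock factor HSFA2. HSP17.6C (AT1G53540, chr1:19980299-19981199, 1 exon block), a cytosolic class I small heat shock protein, rose most. It had 0.189, 0 and 0.153 RPKM in the control libraries and 1200.2, 2118 and 687 RPKM in the heat libraries (log2 change 10.08, SE 0.35, adjusted p 6.68e-09). Heat library 2 was the highest and heat library 3 the lowest for every one of these 15 genes. The 15 largest rises and the 15 largest falls were chosen among called genes whose heat and control libraries did not overlap. Their lack of overlap is therefore no separate result. HSP23.6, of mitochondria, and HSP22.0, of the ER, were at 0 in all 3 control libraries and at 255, 531 and 127 RPKM and 239.7, 351 and 127 RPKM after heat. Against a floor of 3 reads per library they were at least 2401-fold and at least 1865-fold higher, a bound that covers counting error only.

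Over the 19 small heat shock proteins, all of which were tested, 17 rose and none fell, with a median log2 change of 7.47 (with HSP23.6 and HSP22.0 at their bound also 7.47). Together they made up 0.0201, 0.0233 and 0.0215% of the summed RPKM in the control libraries and 1.63, 2.58 and 1.05% in the heat libraries. Near-identical copies in this family may share reads, and how such reads were counted is not known here.

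The heat shock element as 3 alternating units stood in the windows of 4 of the 15 genes with the largest rises, from 250 bases before to 50 after the gene start. In HOP3 it did not lie wholly before the start. The stretches of the other 3 are shown because they carry the sequence that heat shock factors bind. Each is a stretch of 100 bases that lies upstream of the annotated start in TAIR10.1 (RefSeq), written 5′ to 3′ on the strand of the gene, with the 3-unit element in capitals. HSP17.6C lies on the plus strand (chr1:19980189-19980288), HSFA2 on the plus strand (chr2:11135479-11135578) and HSP17.4A on the minus strand (chr3:16984868-16984967).
HSP17.6C: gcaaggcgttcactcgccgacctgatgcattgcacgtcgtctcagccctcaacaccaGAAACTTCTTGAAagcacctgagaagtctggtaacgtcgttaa
HSFA2: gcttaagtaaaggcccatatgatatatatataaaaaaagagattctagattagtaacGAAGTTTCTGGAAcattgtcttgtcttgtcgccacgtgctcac
HSP17.4A: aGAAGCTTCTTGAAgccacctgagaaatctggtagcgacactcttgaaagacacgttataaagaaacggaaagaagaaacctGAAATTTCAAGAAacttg
The HSP17.4A stretch holds 2 such elements. HSP17.4A itself went from 0.0567, 0.0591 and 0 RPKM to 222, 409.6 and 129.8 RPKM (log2 change 7.78, SE 0.37, adjusted p 4.42e-08), though genes on the opposite strand overlap it and the strand setting of the counting is not given. HSFA2, the factor that sustains the heat response, went from 0.725, 3.31 and 0.955 RPKM to 554, 886 and 335 RPKM (log2 change 7.81, SE 0.41, adjusted p 8.34e-08). All 3 heat libraries of both genes lay far above all controls.

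**Figure D1:**
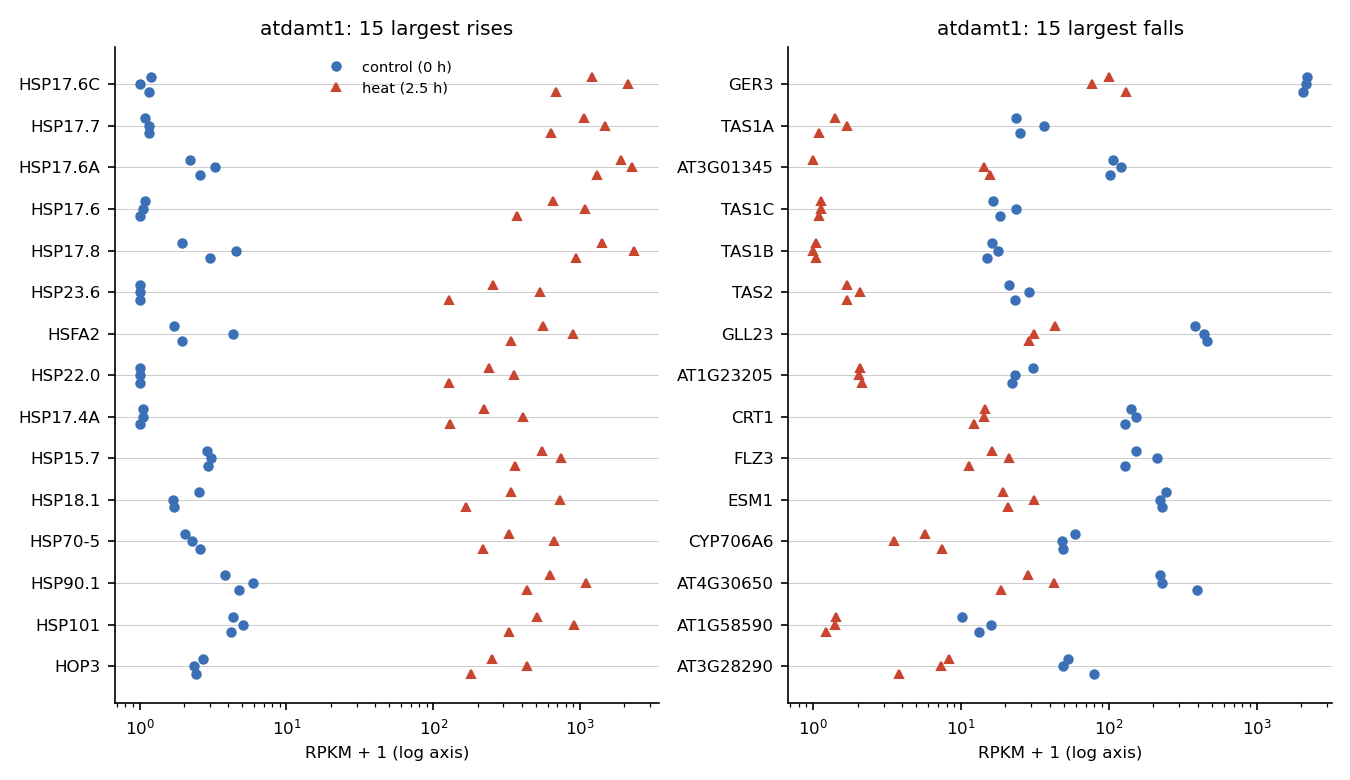
RPKM + 1 on a log axis for the 15 largest rises (left) and the 15 largest falls (right) in atdamt1, 1 point per library, with control libraries as circles and heat libraries as triangles. Genes were chosen for both panels only where no heat library overlapped a control library, and AT3G01345 has 1 heat library at 0.

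In the windows of 300 bases from 250 before to 50 after each gene start, letters were searched on both strands. The 3-unit heat shock element (GAANNTTCNNGAA or TTCNNGAANNTTC, where N is any base) stood in 0.565% of the windows of all genes tested. It stood in 1.87% of genes called higher, in 0.343% of genes called lower and in 12 of 90 windows (13.3%) of genes that rose by at least 3. The 2-unit form (GAANNTTC or TTCNNGAA), which every 3-unit element contains, stood in 18.8% of all genes tested and in 44.4% of genes that rose by at least 3. The G-box CACGTG, the core bound by basic leucine zipper and PIF factors, was in 8.94% of all genes tested, 13.0% of those called higher and 7.94% of those called lower. The dehydration element (ACCGAC or GCCGAC) differed less, at 9.97%, 10.8% and 9.80%. The site II element TGGGCC was in 20% of all genes tested, in 12.5% of those called higher, in 20.4% of those called lower, in 22 of 90 windows of genes that rose by at least 3 and in 11 of 15 windows of the largest rises. A match describes the letters of a window, not a bound site.

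**Figure D2:**
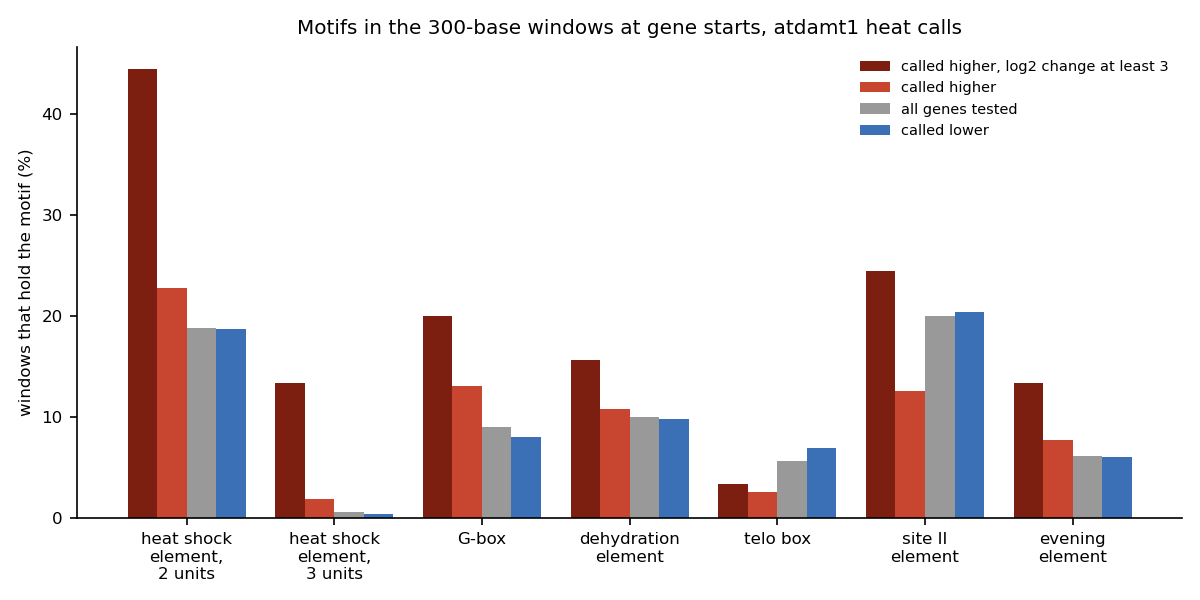
Share of 300-base windows at gene starts that hold each motif, for genes called higher by at least 3 on the log2 scale, genes called higher, all genes tested and genes called lower in atdamt1. The 3-unit heat shock element is in 13.3%, 1.87%, 0.565% and 0.343% of these windows.

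Among 33 tested members of the HSP100, HSP90, HSP70 and co-chaperone list, 18 rose and none fell, with a median log2 change of 0.99. HSP101, the disaggregase needed for acquired thermotolerance, had 3.31, 4.08 and 3.17 RPKM in control and 503, 899.9 and 324 RPKM after heat (log2 change 6.88, SE 0.35, adjusted p 7.11e-08). HSP70-5, a cytosolic HSP70, had 1.03, 1.28 and 1.59 RPKM and 329, 667 and 217 RPKM (log2 change 7.31, SE 0.38, adjusted p 8.05e-08). For both genes heat library 2 was the highest, and the groups did not overlap. HOP3, a co-chaperone that links HSP70 and HSP90, went from 1.69, 1.34 and 1.42 RPKM to 251, 436 and 179 RPKM (log2 change 6.77, SE 0.29, adjusted p 2.43e-08), again with no overlap. HSP101 and HOP3 each overlap a gene on the opposite strand.

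Of 16 tested heat shock factors 7 rose and 1 fell (none with the covariate), and the list median was 0.05. HSFA7B was at 0 in all control libraries and at 38.9, 95.7 and 22.6 RPKM after heat. Set against the floor of 3 reads per library, that is at least 427-fold higher. HSFA7A had 9.94, 16.3 and 10.7 RPKM in control and 306, 403 and 225 RPKM after heat (log2 change 4.54, SE 0.23, adjusted p 6.76e-08), and HSFB1, a class B factor that lacks the activation domain of class A, rose by 4.29 (SE 0.36). The factor that fell was HSFA1D, a class A1 master regulator, from 4.56, 4.84 and 5.32 RPKM to 1.498, 2.601 and 1.21 RPKM (log2 change -1.12, SE 0.17, adjusted p 1.20e-04). HSFA1D and HSFA2 thus moved in opposite directions, with no overlap of the groups for either.

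Regulators that act beside the heat shock factors were among the next largest rises. MBF1C, a transcriptional coactivator needed for thermotolerance, had 6.87, 9.23 and 9.98 RPKM in control and 1050.0, 1198 and 657 RPKM after heat (log2 change 6.61, SE 0.22, adjusted p 3.68e-09). DREB2A, the factor that activates HSFA3, had 1.85, 3.60 and 5.65 RPKM and 282, 356 and 216 RPKM (log2 change 5.98, SE 0.28, adjusted p 4.42e-08). Both overlap genes on the opposite strand, and both lay higher in every heat library than in any control. Of the 14 tested members of the MBF1 and DREB2 list, 4 rose (2 with the covariate) and none fell. In the BAG family, co-chaperones of HSP70, 2 of 8 rose and 1 fell. BAG6 went from 2.34, 2.51 and 2.77 RPKM to 215, 390.1 and 151 RPKM (log2 change 6.05, SE 0.31, adjusted p 7.49e-08) and BAG1 from 34.0, 41.9 and 46.2 RPKM to 14.5, 12.2 and 13.4 RPKM (log2 change -1.53, SE 0.14, adjusted p 2.98e-06), in opposite directions and each with no overlap.

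Most genes listed for protein folding in the endoplasmic reticulum (ER) moved the other way. Of 23 tested members of the list for ER folding and glycoprotein quality control, 19 fell and none rose, against 24.8% of all genes tested that fell, and their median was -1.30 (-0.77 under median-of-ratios scaling). CRT1, a calreticulin that retains unfinished glycoproteins, had 140.0, 151 and 128 RPKM in control and 13.5, 13.4 and 11.2 RPKM after heat (log2 change -3.36, SE 0.13, adjusted p 1.35e-08). The protein disulfide isomerase PDIL2-1 had 93.5, 109 and 86.2 RPKM and 18.9, 18.7 and 18.2 RPKM (log2 change -2.31, SE 0.11, adjusted p 4.42e-08). All heat libraries lay below all controls for both, as they did for 58.6% of all genes tested. With the covariate 9 of the 23 fell. The list's share of the summed RPKM went from 0.208, 0.222 and 0.191% to 0.0660, 0.0849 and 0.0604%. A separate list for the unfolded protein response, which holds ER co-chaperones beside regulators, split, with 4 of 13 higher and 3 lower. These were 30.8% and 23.1%, against 10.2% and 24.8% of all genes tested. The largest rise and the largest fall in it were those of co-chaperones, so not every ER folding gene fell. ERDJ3A, an ER J-domain co-chaperone, rose from 1.68, 1.73 and 1.305 RPKM to 34.3, 57.6 and 18.6 RPKM (log2 change 3.74, SE 0.36, adjusted p 5.25e-06), whereas its relative ERDJ3B fell from 41.2, 47.4 and 38.4 RPKM to 13.0, 13.7 and 15.1 RPKM (log2 change -1.53, SE 0.11, adjusted p 7.35e-07). The sensor gene ATIRE1-1, whose product splices the message of bZIP60, fell by 1.21 on the log2 scale (SE 0.10).

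The 15 largest falls held 4 noncoding precursors of trans-acting small interfering RNAs. These transcripts are cut by a microRNA, copied by RDR6 and diced into small RNAs that silence other messages. All 5 tested members of the list of 7 fell, with a median of -3.98 (-3.75 under median-of-ratios scaling). TAS1A had 22.8, 35.3 and 24.0 RPKM in control and 0.415, 0.693 and 0.0968 RPKM after heat (log2 change -4.33, SE 0.18, adjusted p 1.98e-08). TAS2 had 20.11, 27.9 and 22.4 RPKM and 0.705, 1.07 and 0.697 RPKM (log2 change -3.74, SE 0.15, adjusted p 1.51e-08). TAS3, whose small RNAs target auxin response factors, had 6.64, 6.84 and 8.54 RPKM and 0.0905, 0.243 and 0 RPKM (log2 change -2.91, SE 0.13, adjusted p 3.46e-08). Every heat library was below every control library for each of the 5, TAS1B and TAS1C included. In the wider small RNA pathway list 3 of 18 fell (1 with the covariate) and none rose, a share of 16.7% that lies below the 24.8% of all genes tested. AGO7, the Argonaute that acts on TAS3, fell from 2.43, 2.33 and 1.65 RPKM to 0.224, 0.281 and 0.327 RPKM (log2 change -1.29, SE 0.15, adjusted p 1.95e-05) and RDR6 from 6.89, 6.02 and 6.19 RPKM to 2.57, 2.74 and 2.92 RPKM (log2 change -0.98, SE 0.10, adjusted p 9.11e-06). Heat and control were separate in both genes. ARF4, a target of the TAS3 small RNAs, fell from 10.3, 12.4 and 10.5 RPKM to 1.69, 1.65 and 1.52 RPKM (log2 change -2.20, SE 0.13, adjusted p 1.57e-07).

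The largest fall of a coding gene was that of GER3 (AT5G20630, chr5:6975029-6976036, 1 exon block), a germin-like protein of the cell wall. It had 2203, 2171 and 2069 RPKM in the control libraries and 99.1, 76.0 and 130.0 RPKM after heat (log2 change -4.42, SE 0.16, adjusted p 9.16e-09). ESM1, a modifier of glucosinolate breakdown, went from 242, 221 and 229 RPKM to 18.1, 30.2 and 19.7 RPKM (log2 change -3.32, SE 0.19, adjusted p 1.53e-07). FLZ3, a zinc-finger protein of the FLZ family, went from 152, 210.5 and 128 RPKM to 15.3, 20.09 and 10.4 RPKM (log2 change -3.35, SE 0.23, adjusted p 4.35e-07). The groups were widely apart for these 3 genes. The others among the largest falls, with log2 changes of -3.65 to -3.26, were GLL23, AT1G23205, CYP706A6, AT4G30650, the noncoding AT1G58590 and AT3G28290, which has a near-identical neighbour with which it may share reads.

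AT3G01345 (chr3:129138-130749, 1 exon block), annotated as an expressed protein, stood apart from the rest of the largest falls. In atdamt1 it had 105, 121 and 101 RPKM in control and 0, 13.4 and 14.7 RPKM after heat (log2 change -4.17, SE 0.77, adjusted p 5.48e-04), with heat library 1 at 0 and the others well below all controls. In wild type the same gene had 0.171, 0.225 and 0.0848 RPKM in control and 0.0277, 0 and 0.189 RPKM after heat. Every atdamt1 control library was thus far above every wild-type library, and the fall had no counterpart in wild type, where it began near 0. The difference between the responses was -4.05 (SE 1.09, unadjusted p 0.00306, adjusted p 0.979), which misses the threshold over all genes. Without heat library 1 the gene passed it, as the only gene to do so under any alternative tried for this comparison, with a difference of -2.75 (SE 0.17, adjusted p 0.000125 by limma).

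Transcripts encoded in the organelles took a larger share of the libraries after heat. Poly(A) selection captures few organelle transcripts, in which a poly(A) tail marks RNA for decay, so these shares describe captured transcripts only. Mitochondrion-encoded genes made up 0.0216, 0.0180 and 0.0126% of the summed RPKM in the atdamt1 control libraries and 0.120, 0.155 and 0.111% after heat. Of 50 tested, 48 rose and none fell (median 1.72), and the other 102 of the 152 in the table were too low to test. The ribosomal RNA gene RRN18 had 54.4, 42.9 and 31.4 RPKM in control and 357, 416 and 328 RPKM after heat (log2 change 3.09, SE 0.30, adjusted p 4.70e-06), with no overlap. Wild type was alike in count, with 49 of the 50 higher.

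Chloroplast-encoded genes made up 0.979, 0.497 and 0.320% of the summed RPKM in the atdamt1 control libraries and 6.01, 3.17 and 5.58% after heat, with heat library 2 the lowest of the heat libraries and still above all controls. Wild type had 1.07, 0.613 and 0.394% in control and 0.628, 4.05 and 0.390% after heat, where only library 2 stood above the controls. In atdamt1 46 of 68 tested members rose and 2 fell (median 1.43; none fell without control library 3 and 1 without heat library 1 or 3), and in wild type 3 rose and 2 fell (median 0.21). With the covariate, which is made from these same genes, none rose and 5 fell in atdamt1. PSAA, the core subunit of photosystem I, had 8.17, 3.17 and 3.51 RPKM in atdamt1 control and 180.0, 61.2 and 226 RPKM after heat (log2 change 4.62, SE 0.79, adjusted p 3.29e-04). In wild type PSAA had 9.34, 6.19 and 4.04 RPKM in control and 13.7, 94.9 and 5.88 RPKM after heat. The difference between the responses was 3.05 (SE 1.12, unadjusted p 0.0190) for PSAA, and 35 of the 68 had an unadjusted p under 0.05, against 596 (3.38%) of all genes tested. None passed after adjustment (smallest adjusted p over all genes 0.979), and these genes share 1 genome and move together within a library, so they are not separate observations. RBCL, the large subunit of Rubisco, rose from 65.5, 30.5 and 19.4 RPKM to 787, 266 and 769.9 RPKM (log2 change 3.96, SE 0.79, adjusted p 9.01e-04), and heat library 2 was the lowest of the heat libraries here too.

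**Figure D3:**
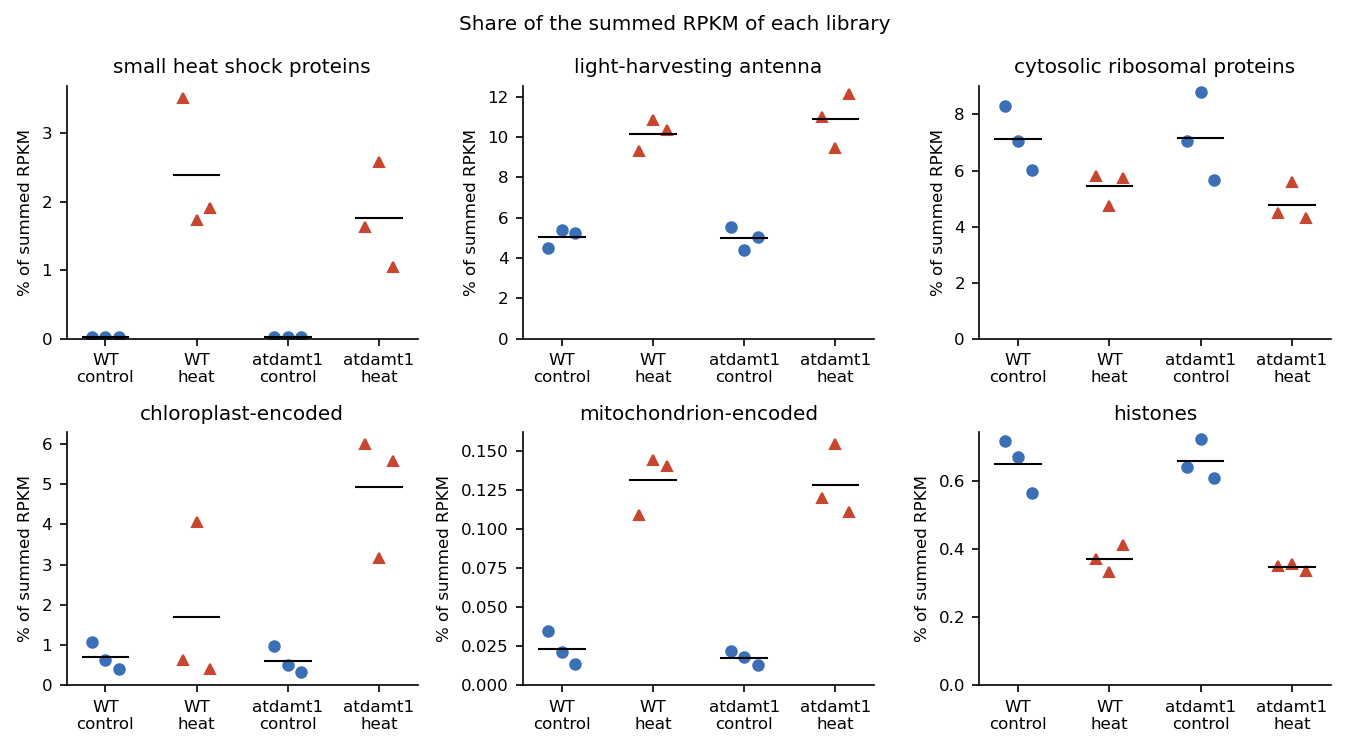
Share of the summed RPKM of each library taken by 6 groups of genes, 1 point per library (circles control, triangles heat) with a line at the mean of 3. In atdamt1 heat libraries the small heat shock proteins take 1.05% to 2.58%, and the chloroplast-encoded genes 3.17% to 6.01%.

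The light-harvesting antenna, which gathers light for the photosystems, is encoded by nuclear genes. Of 19, 12 rose and 1 fell, the latter a call lost with the covariate or without control library 2 or 3 or heat library 2 or 3 (median 1.13), and their share of the summed RPKM went from 5.53, 4.39 and 5.03% to 11.01, 9.45 and 12.1%. LHCB2.2, which binds chlorophyll around photosystem II, had 142, 102 and 143 RPKM in control and 1879.6, 1322 and 2053 RPKM after heat (log2 change 3.74, SE 0.26, adjusted p 4.55e-07), close to its near-identical copy LHCB2.1 with 1825, 1305 and 2045 RPKM after heat. LHCB2.4 went from 32.9, 14.6 and 30.8 RPKM to 598, 410.0 and 687 RPKM (log2 change 4.43, SE 0.35, adjusted p 1.16e-06). All heat libraries exceeded all controls for these genes, and here heat library 2, the highest for chaperones, was the lowest. Of 34 genes for chlorophyll and carotenoid synthesis 11 rose and 3 fell (6 and 1 with the covariate), or 32.4% and 8.82% against 10.2% and 24.8% of all genes tested. CRD1, an enzyme of the chlorophyll ring, rose from 344, 295 and 309 RPKM to 1037, 947 and 1115 RPKM (log2 change 1.71, SE 0.12, adjusted p 4.35e-07) and HEMA1, the first committed enzyme, by 1.49 (SE 0.15). CLH1, a chlorophyllase, fell from 35.9, 31.7 and 62.2 RPKM to 7.52, 5.76 and 4.99 RPKM (log2 change -2.60, SE 0.27, adjusted p 9.25e-06).

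Of 35 subunits of the photosystems, electron transport and Rubisco, 8 rose (5 without heat library 1) and 2 fell (1 without control library 1 or heat library 1 or 2). With the covariate 2 rose and 1 fell. PSAD2, a photosystem I subunit, rose from 346, 265 and 328 RPKM to 1512, 1201 and 1555 RPKM (log2 change 2.18, SE 0.17, adjusted p 9.57e-07), whereas the Rubisco small subunit RBCS-1B fell from 3334, 2997 and 2823 RPKM to 867, 1149.5 and 958 RPKM (log2 change -1.63, SE 0.14, adjusted p 1.87e-06). Neither gene's groups overlapped. In the Calvin cycle and photorespiration 1 of 24 fell and none rose, and the gene that fell was CP12-2, a scaffold that holds Calvin cycle enzymes in the dark. CP12-2 had 797, 679.9 and 871 RPKM in control and 203, 189 and 215 RPKM after heat (log2 change -1.94, SE 0.17, adjusted p 2.36e-06).

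Of 41 tested histone genes 27 fell and none rose (median -1.03, -0.49 under median-of-ratios scaling), and their share of the summed RPKM went from 0.641, 0.722 and 0.608% to 0.348, 0.357 and 0.335%. With the covariate 14 fell. HTB1, a histone H2B, had 77.7, 90.0 and 65.4 RPKM in control and 17.3, 15.8 and 22.2 RPKM after heat (log2 change -2.02, SE 0.22, adjusted p 1.20e-05), and HTA10, a histone H2A, fell by 1.75 on the log2 scale (SE 0.11). In 60 replication and cell cycle genes 4 rose and 12 fell, both shares below those of all genes tested. The rises were 2, 1, 0 and 0 without control library 2, control library 3, heat library 2 or heat library 3, and with the covariate no member rose and 6 fell. Among the falls were CDT1A, which licenses replication origins, from 6.74, 6.76 and 4.81 RPKM to 0.886, 0.951 and 1.22 RPKM (log2 change -1.81, SE 0.18, adjusted p 5.29e-06) and PCNA2, the polymerase clamp, from 26.0, 24.4 and 17.55 RPKM to 6.81, 5.95 and 7.69 RPKM (log2 change -1.58, SE 0.17, adjusted p 1.22e-05). Their groups did not overlap.

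In the nucleolar list, genes that make and process ribosomal RNA, 11 of 21 fell and none rose, and 7 fell without control library 1 or 2 or without heat library 1 or 3. NRPA2, the second subunit of RNA polymerase I, had 10.5, 12.1 and 7.94 RPKM in control and 2.25, 3.47 and 2.67 RPKM after heat (log2 change -1.55, SE 0.18, adjusted p 1.70e-05). Of 188 cytosolic ribosomal protein genes 45 fell and 1 rose (median -0.69). The falls were 23.9% of the list, close to the 24.8% of all genes tested. That count rested on single libraries: it was 26, 23 and 75 without control library 1, 2 or 3 and 23 without heat library 3, and 3 with the covariate, under which no nucleolar gene fell. Control library 2 was the highest for these genes, whose share of the summed RPKM was 7.07, 8.79 and 5.66% in control and 4.49, 5.57 and 4.29% after heat. RPL27A, a protein of the large subunit, had 46.9, 61.5 and 40.6 RPKM in control and 7.26, 5.77 and 4.03 RPKM after heat (log2 change -2.93, SE 0.19, adjusted p 3.37e-07), and AT3G08520 had 132, 195 and 135 RPKM and 50.2, 49.4 and 45.6 RPKM (log2 change -1.63, SE 0.16, adjusted p 4.64e-06). All heat libraries of both were below all controls.

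The telo box AAACCCTA stood in 93 of 188 windows (49.5%) of the ribosomal protein genes, in 5.65% of all genes tested, in 6.87% of those called lower and in 2.52% of those called higher. The window of AT3G08520 is shown as an example, with the box, here on the other strand, in capitals (chr3:2585834-2585933, plus strand, 100 bases).
AT3G08520: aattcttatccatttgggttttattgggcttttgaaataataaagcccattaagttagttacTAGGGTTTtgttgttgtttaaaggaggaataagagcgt

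Translation factors had shares of calls below those of all genes, with 10 of 58 lower and 1 higher (2 and none with the covariate, and 2 higher without control library 3). EIF(ISO)4G2, a scaffold of cap-dependent initiation, fell from 27.6, 30.1 and 22.4 RPKM to 8.66, 10.3 and 9.90 RPKM (log2 change -1.38, SE 0.13, adjusted p 4.56e-06). In the list for messenger RNA decay and stress granules 6 of 26 fell, or 23.1% against 24.8% of all genes tested, and none rose (1 with the covariate). The list median of -0.47 was also near that of all genes, -0.44. Among these, DCP5, a decapping cofactor that goes to processing bodies, fell from 61.9, 63.9 and 65.3 RPKM to 20.09, 24.7 and 26.1 RPKM (log2 change -1.40, SE 0.10, adjusted p 7.07e-07), and PAT1, a decapping activator, from 17.99, 18.7 and 18.05 RPKM to 5.68, 6.52 and 6.69 RPKM (log2 change -1.40, SE 0.09, adjusted p 2.23e-07). Both were separate between heat and control.

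Genes for writing, reading and removing methyl marks on DNA and RNA, the class to which AT1G19340 belongs, included falls and no rise. Of 29 tested, 9 fell, or 31% against 24.8% of all genes tested, and none rose. With the covariate 2 fell. The list median was -0.39, beside -0.44 for all genes. ECT7, a member of the YTH family of methyladenosine readers, had 14.6, 16.2 and 16.4 RPKM in control and 3.18, 3.55 and 3.12 RPKM after heat (log2 change -1.97, SE 0.12, adjusted p 2.18e-07). ECT4, a reader of the same family, went from 20.24, 22.5 and 17.1 RPKM to 6.80, 7.87 and 7.89 RPKM (log2 change -1.29, SE 0.12, adjusted p 3.03e-06) and ECT3 fell by 1.38 (SE 0.18). CMT3, the plant-specific DNA methyltransferase of CHG sites, went from 11.1, 11.1 and 7.70 RPKM to 2.56, 4.07 and 2.53 RPKM (log2 change -1.44, SE 0.22, adjusted p 1.37e-04). In each of the 4 every heat library was lower than every control. Wild type had 8 of the 29 lower and none higher.

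Splicing factors of the SR family included more rises than falls, with 4 of 20 higher (2 without control library 1) and none lower. SR45A, a splicing factor known to be heat-induced, had 20.6, 25.7 and 21.0 RPKM in control and 141, 249 and 101 RPKM after heat (log2 change 2.72, SE 0.30, adjusted p 1.15e-05), with heat library 2 the highest.

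Of 37 circadian clock genes 17 rose and 7 fell (10 and 2 with the covariate), or 45.9% and 18.9% against 10.2% and 24.8% of all genes tested. The clock runs on repressors that peak at different times of day, and the sampling times of the groups differ by 2.5 h per the labels, so an effect of the hour and one of heat cannot be told apart. RVE2, a MYB factor of the morning group, fell from 93.5, 97.5 and 116 RPKM to 11.2, 16.2 and 13.8 RPKM (log2 change -2.82, SE 0.18, adjusted p 2.52e-07), whereas its relatives RVE1 and RVE7 rose. RVE1 had 0.590, 0.682 and 0.660 RPKM in control and 9.14, 8.53 and 9.02 RPKM after heat (log2 change 2.59, SE 0.17, adjusted p 3.31e-07), and RVE7 had 4.58, 5.89 and 6.19 RPKM and 29.4, 40.6 and 26.3 RPKM (log2 change 2.32, SE 0.21, adjusted p 2.91e-06). The groups did not overlap for any of the 3. The evening element AAATATCT, the site bound by clock MYB factors, stood in 11 of 37 clock windows (29.7%) and in 6.13% of all genes tested. It stood in 7.67% of the genes called higher, in 6.04% of those called lower, in 12 of 90 windows of genes that rose by at least 3 and in none of the 15 largest rises. RVE7 carries it 5′ of its start (chr1:6308255-6308354, minus strand, 100 bases, element in capitals).
RVE7: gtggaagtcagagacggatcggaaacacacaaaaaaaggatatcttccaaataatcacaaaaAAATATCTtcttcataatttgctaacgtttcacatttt

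In light and shade signalling 13 of 35 rose and 8 fell (4 and 5 with the covariate), or 37.1% and 22.9% against 10.2% and 24.8% of all genes tested. BBX25, a B-box partner of HY5, rose from 2.62, 3.67 and 3.80 RPKM to 13.7, 9.18 and 13.9 RPKM (log2 change 1.59, SE 0.23, adjusted p 9.54e-05). HYH, the homolog of HY5, fell from 14.8, 25.3 and 22.3 RPKM to 4.42, 4.69 and 6.04 RPKM (log2 change -1.83, SE 0.26, adjusted p 8.31e-05), and SPA3, a partner of the ubiquitin ligase COP1, from 8.04, 8.46 and 8.40 RPKM to 1.91, 1.55 and 1.65 RPKM (log2 change -1.78, SE 0.12, adjusted p 4.01e-07). Each was separate between heat and control.

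Zinc-finger repressors of the ZAT and AZF family rose in 7 of 8 tested cases and fell in none, with a median of 2.89. The other 7 of the 15 members were too low to test. ZAT12, a regulator of the oxidative stress response, had 0.910, 1.58 and 1.45 RPKM in control and 50.6, 76.1 and 33.5 RPKM after heat (log2 change 4.49, SE 0.33, adjusted p 8.21e-07). ZAT10 had 2.48, 4.53 and 3.67 RPKM and 94.6, 71.5 and 66.5 RPKM (log2 change 4.12, SE 0.21, adjusted p 7.75e-08), and ZAT6 had 4.20, 7.54 and 7.57 RPKM and 71.5, 64.8 and 47.8 RPKM (log2 change 3.08, SE 0.22, adjusted p 6.55e-07). Every heat library exceeded every control. ZAT7 and AZF3 rose by 3.29 (SE 0.29) and 2.70 (SE 0.34), and ZAT8, at 2.73, 4.16 and 1.26 RPKM after heat, by 1.47 (SE 0.42), a call that was lost with a pseudocount of 5.

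Other families of stress regulators held both rises and falls. Of 45 WRKY factors 7 rose and 4 fell (2 without control library 3 or heat library 1, none with the covariate). These were 15.6% and 8.89%, against 10.2% and 24.8% of all genes tested. WRKY33, a regulator of camalexin synthesis, rose from 4.99, 7.04 and 7.02 RPKM to 61.6, 74.4 and 36.7 RPKM (log2 change 2.95, SE 0.34, adjusted p 1.83e-05), and WRKY70, a node of salicylate signalling, from 1.07, 1.78 and 1.62 RPKM to 18.6, 21.1 and 14.9 RPKM (log2 change 2.95, SE 0.20, adjusted p 4.11e-07). In the ethylene-responsive factors 17 of 52 rose and 11 fell (5 with the covariate), or 32.7% and 21.2% against the same shares of all genes tested. ERF104 had 11.1, 14.8 and 13.9 RPKM in control and 144, 111 and 114 RPKM after heat (log2 change 3.11, SE 0.18, adjusted p 1.42e-07), and ERF119 fell from 10.5, 12.9 and 10.2 RPKM to 2.22, 1.33 and 1.39 RPKM (log2 change -2.22, SE 0.14, adjusted p 3.31e-07). In none of these 4 genes did heat and control overlap. Of 46 NAC factors 11 rose and 4 fell, or 23.9% and 8.7% against 10.2% and 24.8% of all genes tested. RD26, a factor of dehydration and senescence, was higher (1.64, 2.57 and 2.57 RPKM to 9.04, 10.6 and 11.2 RPKM, log2 change 1.80, SE 0.18, adjusted p 6.15e-06). NAC083, a repressor of vessel formation, was lower (45.8, 52.0 and 73.9 RPKM to 10.8, 10.0 and 12.9 RPKM, log2 change -2.23, SE 0.24, adjusted p 1.01e-05).

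Calcium-binding calmodulin-like proteins rose in 11 of 29 cases and fell in 4, a count that was 1 or 2 without control library 2 or 3 or without heat library 1 or 3 and 1 with the covariate. CML44 had 0.473, 0.448 and 1.39 RPKM in control and 79.4, 90.8 and 57.1 RPKM after heat (log2 change 5.45, SE 0.25, adjusted p 3.46e-08), and CML12, the touch-induced TCH3, had 26.7, 29.3 and 27.3 RPKM and 366, 351 and 275 RPKM (log2 change 3.52, SE 0.16, adjusted p 3.46e-08). The heat libraries were above the controls throughout.

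Ethylene synthesis and signalling genes had 9 rises and 3 falls among 24. ACS6, an ACC synthase, rose from 3.95, 5.74 and 6.80 RPKM to 56.5, 42.9 and 32.7 RPKM (log2 change 2.78, SE 0.21, adjusted p 9.87e-07) and the receptor gene EIN4 fell from 4.50, 3.94 and 3.93 RPKM to 1.23, 1.23 and 1.45 RPKM (log2 change -1.15, SE 0.11, adjusted p 4.15e-06). Of 84 auxin genes 18 rose and 19 fell (5 and 12 with the covariate), the falls being 22.6% against 24.8% of all genes tested. GH3.6, an enzyme that conjugates auxin to amino acids, rose from 5.77, 5.49 and 7.70 RPKM to 58.7, 36.6 and 29.4 RPKM (log2 change 2.49, SE 0.29, adjusted p 1.95e-05). ARF6, an auxin response factor, fell from 15.4, 17.0 and 14.5 RPKM to 3.22, 2.87 and 2.39 RPKM (log2 change -2.12, SE 0.18, adjusted p 1.69e-06). These genes showed no overlap between heat and control.

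Of 55 cytokinin, gibberellin and brassinosteroid genes 8 rose and 11 fell (2 and 7 with the covariate). These were 14.5% and 20%, against 10.2% and 24.8% of all genes tested. GA3OX1, the enzyme that completes active gibberellins, rose from 1.26, 1.19 and 1.03 RPKM to 6.05, 10.2 and 8.87 RPKM (log2 change 2.09, SE 0.21, adjusted p 5.59e-06), and ARR8 and ARR6, type-A repressors of cytokinin signalling, fell by 2.03 (SE 0.17) and 1.64 (SE 0.20). Abscisic acid and dehydration genes had 8 rises (20%) and 7 falls (17.5%) among 40, and the falls were 4 without control library 1 or 2 or heat library 1. With the covariate 3 rose and 1 fell. ERD15 rose from 326, 349.6 and 369 RPKM to 857, 759.5 and 813 RPKM (log2 change 1.22, SE 0.11, adjusted p 2.80e-06), and PYL6, an abscisic acid receptor, fell from 15.3, 17.7 and 11.4 RPKM to 4.72, 3.44 and 3.87 RPKM (log2 change -1.64, SE 0.18, adjusted p 1.12e-05). Jasmonate genes were mostly not called, with 2 of 23 higher and 2 lower (1 and 1 with the covariate), each share (8.7%) below that of all genes tested. The factor MYC4 was lower (5.26, 5.41 and 6.27 RPKM to 1.34, 1.31 and 1.66 RPKM, log2 change -1.45, SE 0.16, adjusted p 1.49e-05). In salicylic acid and immune signalling 4 of 30 rose and 7 fell (3 or 4 without control library 1 or 2 or heat library 1 or 2, and 1 with the covariate). These shares, 13.3% and 23.3%, lay near the 10.2% and 24.8% of all genes tested. The log2 changes of the list ran from -1.46 to 1.74. At its lower end, the flagellin receptor gene FLS2 had 4.87, 5.79 and 3.26 RPKM in control and 1.17, 0.888 and 0.996 RPKM after heat (log2 change -1.46, SE 0.18, adjusted p 3.57e-05).

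Among the metabolic genes named, ASN1 had the largest rise. It encodes an asparagine synthetase known to be induced in the dark and by low sugar, and had 0.279, 0.452 and 0.435 RPKM in control and 114, 101 and 133 RPKM after heat (log2 change 6.39, SE 0.21, adjusted p 3.68e-09). Its relative ASN2 fell from 310.4, 283 and 249 RPKM to 92.9, 91.4 and 80.7 RPKM (log2 change -1.65, SE 0.19, adjusted p 1.97e-05). The groups were apart for both. The 37 nitrogen and sulfur assimilation genes as a list held 4 rises and 5 falls (3 with the covariate), or 10.8% and 13.5% against 10.2% and 24.8% of all genes tested. Among the falls was APR3, which reduces activated sulfate, from 148, 187 and 222 RPKM to 63.1, 37.1 and 35.3 RPKM (log2 change -2.05, SE 0.25, adjusted p 2.87e-05).

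Raffinose and galactinol genes, whose sugars protect cells in heat and drought, had 3 rises among 5 tested and no falls. GOLS1, the galactinol synthase known as a target of heat shock factors, went from 4.83, 3.85 and 12.3 RPKM to 84.0, 191 and 60.3 RPKM (log2 change 3.79, SE 0.44, adjusted p 2.03e-05), highest in heat library 2. DIN10, named for its induction in the dark, went from 64.6, 67.1 and 61.9 RPKM to 448, 379 and 459.9 RPKM (log2 change 2.71, SE 0.12, adjusted p 3.51e-08). In starch and sucrose turnover 9 of 38 rose (4 with the covariate) and 5 fell (3 without control library 1). GBSS1, which makes amylose, rose from 0.594, 0.735 and 0.361 RPKM to 9.87, 3.69 and 5.97 RPKM (log2 change 2.19, SE 0.25, adjusted p 1.81e-05). The beta-amylases moved apart, with BAM1 higher (8.95, 9.14 and 11.3 RPKM to 32.5, 35.6 and 27.7 RPKM, log2 change 1.61, SE 0.13, adjusted p 1.44e-06) and BAM3 lower (119, 116 and 127 RPKM to 27.9, 32.3 and 33.2 RPKM, log2 change -1.92, SE 0.19, adjusted p 6.11e-06). In proline metabolism 3 of 10 rose (1 without control library 1 or 2) and 2 fell (1 and 1 with the covariate), and POX1, the proline dehydrogenase that degrades proline, went from 65.2, 93.2 and 66.3 RPKM to 220.3, 185 and 268 RPKM (log2 change 1.57, SE 0.21, adjusted p 5.43e-05).

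Glucosinolates are the sulfur-rich defence compounds of Arabidopsis, and 10 of 30 pathway genes fell while 3 rose. These were 33.3% and 10%, against 24.8% and 10.2% of all genes tested. The rises were 1 without control library 2 or without heat library 1, 2 or 3, and with the covariate 6 members fell and none rose. MYB28, the regulator of the aliphatic branch, fell from 19.6, 11.3 and 15.6 RPKM to 2.71, 2.02 and 2.298 RPKM (log2 change -2.27, SE 0.17, adjusted p 1.03e-06), and MYB34, of the indolic branch, from 15.2, 17.8 and 32.9 RPKM to 1.42, 1.79 and 1.19 RPKM (log2 change -3.15, SE 0.29, adjusted p 3.93e-06). Of 35 genes of wax, cutin and suberin 13 fell and 2 rose (median -0.83). The rises were 1 without control library 1 or 2 or heat library 2, and with the covariate 5 members fell and none rose. LTPG1, a lipid transfer protein that exports wax, fell from 373, 457 and 468 RPKM to 135, 107 and 91.9 RPKM (log2 change -1.96, SE 0.19, adjusted p 5.40e-06) and LTPG2 by 2.34 (SE 0.24). Phenylpropanoid and flavonoid genes had 9 rises (33.3%) and 3 falls (11.1%) among 27, against 10.2% and 24.8% of all genes tested, and a median of 0.26. The rises were 4, 5 and 4 without control library 1, control library 2 or heat library 3 and 1 with the covariate. Log2 changes in the list ran from -1.95 to 1.33. Against the direction of most calls in this list, MYB111, an activator of flavonol synthesis, fell from 3.18, 4.70 and 2.84 RPKM to 0.158, 0.226 and 0.110 RPKM (log2 change -1.95, SE 0.20, adjusted p 6.55e-06). For each gene named here the heat libraries lay below the controls.

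Of 39 expansins and xyloglucan enzymes, which loosen the wall in growing cells, 13 fell and 4 rose. These were 33.3% and 10.3%, against 24.8% and 10.2% of all genes tested. XTH31 fell from 67.7, 94.1 and 127 RPKM to 12.8, 14.4 and 6.17 RPKM (log2 change -3.03, SE 0.33, adjusted p 1.09e-05) and the expansin EXPA15 from 22.0, 16.2 and 37.8 RPKM to 4.57, 5.17 and 2.70 RPKM (log2 change -2.30, SE 0.31, adjusted p 5.29e-05), while XTH22, the touch-induced TCH4, rose from 6.79, 7.11 and 7.37 RPKM to 104, 97.3 and 79.4 RPKM (log2 change 3.54, SE 0.11, adjusted p 3.68e-09). Heat and control were separate for all 3. Of 55 genes of cellulose synthesis and arabinogalactan proteins 19 fell and 3 rose (12 and 1 with the covariate), and FLA8, a fasciclin-like arabinogalactan protein, fell from 207, 178 and 204 RPKM to 39.1, 41.3 and 53.9 RPKM (log2 change -2.12, SE 0.20, adjusted p 4.87e-06). Aquaporins, the water channels, had 6 rises (3 without control library 2) and 5 falls (3 without control library 3 or heat library 2 or 3) among 24, and with the covariate 1 rise and 2 falls. In the main count their shares were 25% and 20.8%, beside 10.2% higher and 24.8% lower of all genes tested. PIP2-3, a plasma-membrane channel, rose from 6.73, 3.71 and 8.70 RPKM to 54.9, 94.7 and 71.4 RPKM (log2 change 3.37, SE 0.28, adjusted p 1.87e-06).

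Of 38 autophagy genes 10 rose (6 with the covariate) and none fell. ATG8E, the ubiquitin-like protein of the autophagosome membrane, rose from 24.7, 28.2 and 35.6 RPKM to 94.7, 105 and 86.1 RPKM (log2 change 1.67, SE 0.13, adjusted p 1.39e-06). Of 50 proteasome subunits 4 rose, a share under that of all genes, and 1 fell (none with the covariate or without control library 1 or heat library 1), and RPN1A went from 30.5, 32.1 and 30.7 RPKM to 39.8, 44.5 and 44.4 RPKM (log2 change 0.45, SE 0.09, adjusted p 0.00110). Of 5 polyubiquitin genes tested 3 rose, with UBQ10 at 408, 429.7 and 429 RPKM in control and 756, 788 and 739 RPKM after heat (log2 change 0.85, SE 0.10, adjusted p 1.42e-05). The 3 genes had no overlap.

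Of 41 antioxidant genes 9 rose and 6 fell (3 without control library 2 or heat library 3), or 22% and 14.6% against 10.2% and 24.8% of all genes tested. With the covariate 2 rose and 3 fell. CSD2, the chloroplast copper-zinc superoxide dismutase, fell from 25.6, 33.8 and 38.2 RPKM to 2.93, 5.11 and 2.86 RPKM (log2 change -2.87, SE 0.26, adjusted p 3.00e-06), together with CCS, its copper chaperone (12.4, 16.4 and 19.8 RPKM to 4.87, 6.39 and 5.34 RPKM, log2 change -1.38, SE 0.15, adjusted p 1.36e-05). CAT2, the leaf catalase, rose from 83.6, 87.6 and 113 RPKM to 175, 148 and 204 RPKM (log2 change 0.89, SE 0.21, adjusted p 0.00268). Of 19 tau-class glutathione transferases 2 rose (1 with the covariate) and 1 fell (none with the covariate or without control library 3 or heat library 3), led by GSTU5 with 81.32, 89.9 and 104 RPKM in control and 291, 366 and 212 RPKM after heat (log2 change 1.62, SE 0.23, adjusted p 7.93e-05). Alternative respiration held 4 rises (2 with the covariate) and 2 falls (1 without control library 1 or heat library 3, none with the covariate) among 13, with NDA1, a mitochondrial NADH dehydrogenase outside complex I, up from 1.31, 1.64 and 1.86 RPKM to 13.8, 10.2 and 14.7 RPKM (log2 change 2.41, SE 0.17, adjusted p 5.95e-07). The heat and control values of these genes were separate.

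The cold-response regulon, 19 tested genes, had 1 rise (3 without control library 3) and 3 falls, the first share below that of all genes unless control library 3 was left out. DREB1A and DREB1C, cold-induced factors of the same family, moved apart, DREB1A from 1.44, 2.23 and 2.41 RPKM to 0.247, 0.165 and 0.0971 RPKM (log2 change -1.36, SE 0.21, adjusted p 1.74e-04) and DREB1C from 0.733, 1.44 and 1.54 RPKM to 5.35, 3.83 and 2.79 RPKM (log2 change 1.14, SE 0.21, adjusted p 4.67e-04). In membrane lipid genes 3 of 27 rose and 4 fell (1 and 1 with the covariate), or 11.1% and 14.8% against 10.2% and 24.8% of all genes tested. TIL, a lipocalin needed for thermotolerance, rose from 52.4, 53.3 and 63.8 RPKM to 359, 527 and 274 RPKM (log2 change 2.71, SE 0.22, adjusted p 1.67e-06), and FAD8, a desaturase active at low temperature, fell from 61.5, 54.1 and 51.3 RPKM to 19.5, 24.1 and 24.0 RPKM (log2 change -1.27, SE 0.14, adjusted p 1.22e-05). Of 32 iron and phosphate starvation genes 4 rose and 4 fell (2 without control library 2 or heat library 1 or 2), and with the covariate 1 rose and 2 fell. In the main count each share was 12.5%, beside 10.2% higher and 24.8% lower of all genes tested.

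Markers of leaf and guard cells were lower in 8 of 21 cases (1 with the covariate) and higher in none, among them MYB60, a factor of guard cells, from 13.4, 9.90 and 18.1 RPKM to 5.17, 4.61 and 3.11 RPKM (log2 change -1.46, SE 0.21, adjusted p 1.02e-04). The list's share of the summed RPKM was 5.52, 4.68 and 5.34% in control and 3.41, 3.47 and 3.76% after heat. Root markers held 1 rise (2 without control library 3, none with the covariate) and 2 falls among 10, near the shares of all genes tested. Their median of 0.11 lay above the -0.44 of all genes, and their log2 changes ran from -2.14 to 1.09. SCR, the endodermis regulator, was lower (9.46, 9.91 and 10.3 RPKM to 2.02, 1.56 and 1.86 RPKM, log2 change -1.95, SE 0.13, adjusted p 4.75e-07), unlike the list median. The summed level of the root list, most of it PYK10, was 1345, 1369 and 2061 RPKM in control and 393, 347 and 375 RPKM after heat. Shoot meristem markers held 1 rise (none with the covariate) and 1 fall among 6, and flower, pollen and seed markers 0 rises and 1 fall among 3, a call lost with the covariate or without control library 2 or 3 or heat library 1 or 3. The part of these markers in the other results was not tested.

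**Figure D4:**
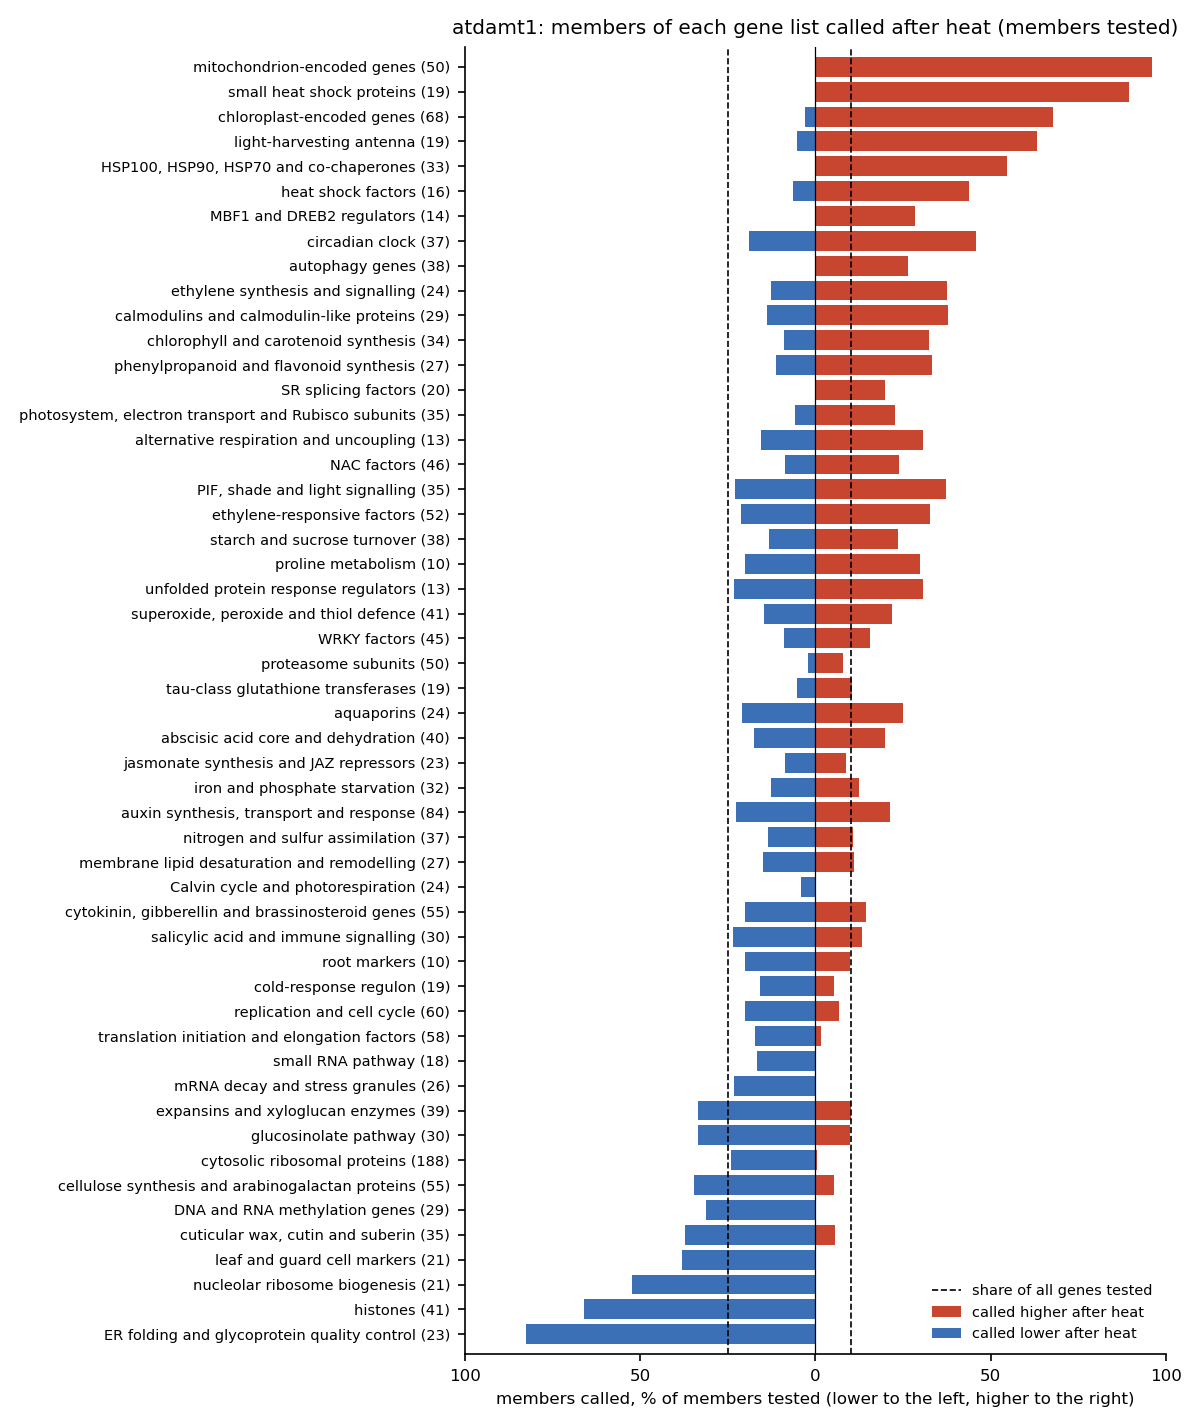
Members called after heat in atdamt1 as a percent of the members tested, for the lists with at least 10 tested members (number tested in brackets), higher to the right and lower to the left. Dashed lines mark 10.2% and 24.8%, the shares of all genes tested, and the bars beyond them run from mitochondrion-encoded genes at the top to ER folding at the bottom.

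Whether the response of atdamt1 differed from that of wild type was tested as the difference between the heat changes, which share no control library. No gene was called (0% of 17628 by limma, smallest adjusted p 0.979), 596 (3.38%) had an unadjusted p under 0.05, and no gene passed on any scaling taken alone. The median SE of a difference was 0.20 on the log2 scale, and the missing calls do not show that the responses were alike. In wild type 1627 genes (9.23%) were called higher and 3922 (22.2%) lower. Both genotypes shared 1345 rises, 74.6% of those in atdamt1, and 3437 falls, 78.6%, and no gene was called in opposite directions. Among the named genes, HSP17.6C changed by 10.08 in atdamt1 and 10.67 in wild type, a difference of -0.59 (SE 0.50, unadjusted p 0.266).

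A few named genes had a smaller unadjusted p for that difference, none past the threshold after adjustment (adjusted p 0.979). The change of ASN1 in atdamt1 minus that in wild type was 1.02 (SE 0.29, unadjusted p 0.00454), and in wild type it had 0.620, 1.58 and 0.498 RPKM in control and 96.8, 66.3 and 65.7 RPKM after heat. XTH22 had 5.79, 6.44 and 5.70 RPKM in wild-type control and 134, 108 and 119.9 RPKM after heat (difference -0.58, SE 0.16, unadjusted p 0.00351). ZAT8 had 0.410, 0.115 and 0 RPKM in wild-type control and 20.3, 4.62 and 12.9 RPKM after heat (difference -1.88, SE 0.59, unadjusted p 0.00804), and every wild-type heat library was above every atdamt1 heat library. GER3 had 1675, 1673 and 1935 RPKM and 43.9, 53.2 and 51.5 RPKM in wild type (difference 0.70, SE 0.23, unadjusted p 0.0103).

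**Figure D5:**
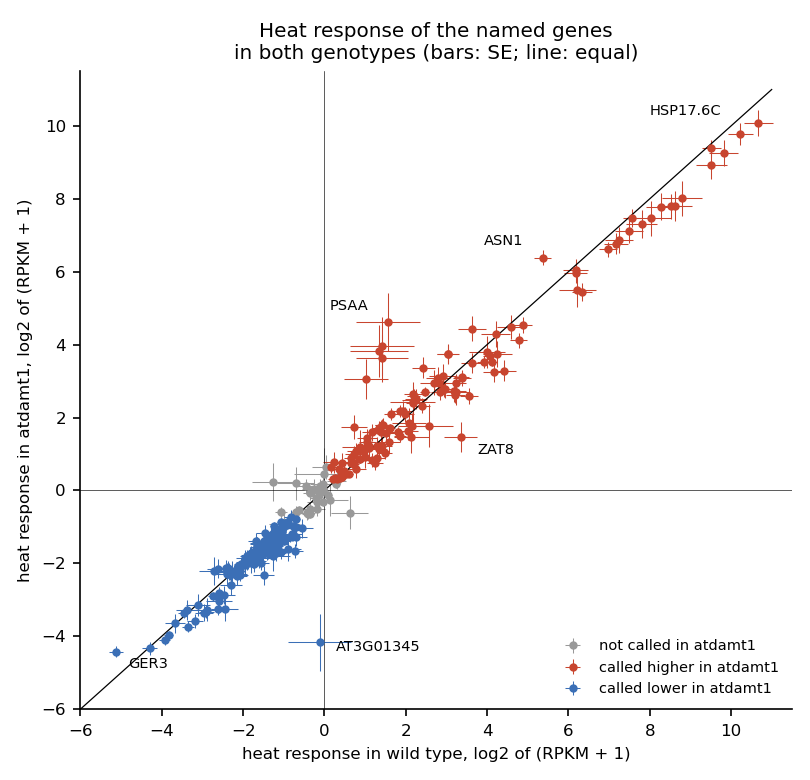
Heat response in atdamt1 against that in wild type for the 289 named genes that were tested, log2 change of RPKM + 1 with SE bars, and a line where both are equal. AT3G01345 lies at -4.17 in atdamt1 and -0.12 in wild type, and 4 chloroplast-encoded genes, PSAA among them, lie above the line.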

How the data were processed

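Poly(A) RNA of seedlings was sequenced in 12 libraries from a strand-keeping kit, per the labels' protocols. The deposited table holds RPKM values made by the authors; the submitters' processing notes list STAR, DESeq2 and TAIR10 and no role or version. How reads were counted, by strand or not and on which annotation release, was not given, so genes that overlap another (81 of the 298 named) and near-identical copies are uncertain. Depth was read from the steps between RPKM values, using exon lengths of TAIR10.1; of 24599 genes above 0, 24381 gave whole reads in every library within 0.1 reads.

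Genes that reached 1 RPKM in 3 or more libraries were tested as log2(RPKM + 1) with limma 3.58.1 in R 4.3.3: 4 group means, all 12 libraries, variance trend, two-sided, Benjamini-Hochberg adjustment over all genes tested, threshold 0.05. The fit was checked on simulated data with independent noise and no shift of whole libraries, so that check does not bear on the choice of scaling. Calls needed the same sign past 0.05 on 3 scalings; printed values are those of the deposited scale. Tables and figures used Python 3.11.15, numpy 2.4.6, pandas 2.3.3 and matplotlib 3.10.9. Replicate libraries of a group differed, and none was counted as a copy.

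Members and 59 gene lists were chosen with earlier results of these data known. Named genes were AT1G19340, the 15 largest rises and falls called (5 RPKM or more on average in the higher group, no overlap), and in each list up to 4 called members with the largest change, the largest in the other direction, or the smallest p. Lists of at most 10 tested members may be named in full. ASN1, XTH22, ZAT8 and GER3 were picked for the genotype comparison after their values were seen. Alternatives were other pseudocounts, filters, scalings, variance settings, a covariate and omitted libraries.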

Additional observations from a re-analysis of the deposited data

How the results depend on the processing

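The split between rises and falls depended on scaling: the deposited scale alone called 9913 genes lower, median-of-ratios scaling 4841 higher and quantile scaling 4050 higher. Each of these sets holds all 1803 rises or 4371 falls called by definition, because a call must pass on every scaling. With the chloroplast-encoded share of the summed RPKM as a covariate, which differs between atdamt1 heat and control libraries in every case, the calls were 969 higher and 1696 lower, and none of the chloroplast-encoded genes, from whose own values the covariate is made, was called higher. Histone falls were then 14, ER folding falls 9, nucleolar falls 0 and small heat shock protein rises 17. As the covariate goes with the contrast tested, calls can be lost for any gene, and these losses are no evidence about the lists. Leaving out each atdamt1 library gave 1494 to 1946 rises and 3696 to 4282 falls, and 0 to 1 differences between the responses, the 1 being AT3G01345 without heat library 1; where a group was left with 2 libraries, the spread was shared by all groups. Pseudocounts of 0.1 and 5, both other filters, variance settings, array weights and the 6 atdamt1 libraries alone kept both counts within 1.5 times. With the replicate number as a block, 1830 genes were called higher and 4376 lower. The deviations of same-numbered atdamt1 control and heat libraries correlated at 0.056, 0.279 and 0.241. Over all pairs of groups such correlations ran from -0.425 to 0.527. These values do not settle whether the numbers pair the libraries, and the main fit did not pair them.

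Of 257 named genes called, none changed sign under any of 19 settings, 28 lost the call without 1 library and 73 with the covariate. The single scalings are among these settings, and a call already requires the same sign on them. Most named genes were also chosen for large changes, so the stable sign was largely set by the choice. Of the named genes not called, 18 changed sign. Depth limits the low genes: 15205 of the 32833 were not tested.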
